A study of Mus musculus with 16 samples.

Results

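The genes described here are 10 mouse enzymes that oxidise fatty acids inside mitochondria: Cpt1a, Cpt2, Acadm, Acadl, Acadvl, Hadh, Hadha, Hadhb, Eci2 and Etfdh. They were chosen by name, with earlier results of these data known. Each is given by its brightest probe set on average over the 16 arrays. Only probe sets that the array's probe annotation pairs with that gene alone were used. The annotation at hand gave a probe set to 9 of the 10, out of 17097 genes in all; Hadha was not analysed here.

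The arrays were made from macrophages of mouse fat at 19 to 21 weeks of age, in a study of the succinate receptor gene Sucnr1. Every mouse carried floxed Sucnr1 alleles. Mice labelled WT carried these alleles alone, and mice labelled KO-LysM also expressed Cre recombinase from the lysozyme M promoter, which is active in myeloid cells in general and not in macrophages alone. Cells came from subcutaneous (SAT) or visceral (VAT) fat, which gave 4 groups, WT SAT, WT VAT, KO-LysM SAT and KO-LysM VAT, of 4 pools each. Pools 1 and 2 of every group were labelled day 1, and pools 3 and 4 day 2. The labels name CD11b beads in 1 place and F4/80+ cells in another, and the letters NCD are not spelled out in them. RNA from 300000 cells was amplified for 24 cycles. The labels do not say whether pools shared animals, so p-values measure the spread between these pools.

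Long-chain fatty acids enter mitochondria as carnitine esters: Cpt1a, in the outer membrane, makes the ester and is the main control point of the pathway, and Cpt2, in the inner membrane, turns it back into acyl-CoA. Each round of beta-oxidation then uses an acyl-CoA dehydrogenase (Acadvl, Acadl or Acadm for very long, long and medium chains), a hydratase, a hydroxyacyl-CoA dehydrogenase and a thiolase. For long chains the last steps sit on the trifunctional protein made of Hadha and Hadhb, and for shorter chains the dehydrogenase is Hadh. Eci2 moves double bonds of unsaturated chains, and Etfdh passes the electrons from the dehydrogenases to ubiquinone. In macrophages, fatty acid oxidation is known for its link to alternative activation by interleukin 4.

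Values are log2 signals, and those used here ran from 2.91 to 13.19 over the deposited table. A signal at or under 4.78, the 95th percentile of 41 olfactory receptor genes, was taken as background. Of 14 macrophage markers 13 lay above background in each group, all but Cd163, and Cd68 averaged 11.19 over the 16 arrays. Stromal progenitor markers were bright too, with Dcn at 10.06 and Col1a1 at 9.90 over the same arrays. The log2 of the summed macrophage marker signals had a median of 13.09 in WT SAT and 12.30 in KO-LysM VAT. For stromal markers it was 11.42 in WT SAT and 12.06 in KO-LysM VAT. Sucnr1 itself averaged between 3.52 (WT VAT) and 3.55 (KO-LysM SAT) in the 4 groups, under background in each, so it does not check the genotype. The depot labels could not be checked in the same way for both genotypes. Akr1c18, a steroid-metabolising enzyme, gave a VAT minus SAT value of -3.79 in WT and 4.93 in KO-LysM, and Adh7 and Emx2 also changed sign between genotypes. It was not settled here whether the depot labels of 1 genotype are exchanged. Depots are named as labelled. An exchange would change every knockout value given within SAT or within VAT and the difference between them, but not the mean over both depots. It would also reverse the sign of each VAT minus SAT value in the exchanged genotype.

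In the knockout arrays most of these enzymes were higher. Averaged over both depots, 7 of the 9 rose and 1 fell at a Benjamini-Hochberg adjusted p under 0.05 over all genes (limma), against 22.5% of all genes that rose and 29.2% that fell. Hadh rose by 1.10 ± 0.17 on the log2 scale (SE of the fit, 8 arrays against 8), a 2.14-fold difference, and Acadm by 0.76 ± 0.11, or 1.69-fold. Eci2 rose by 0.66 ± 0.13, Etfdh by 0.57 ± 0.08 and Acadl by 0.49 ± 0.10. Acadvl at 0.26 ± 0.09 and Hadhb at 0.22 ± 0.08 passed more narrowly, with adjusted p of 0.0306 and 0.0394, and Cpt2 fell by 0.24 ± 0.08 (adjusted p = 0.021). Cpt1a, the entry step, did not pass (0.11 ± 0.17, adjusted p = 0.603). The median change of the 9 was 0.49, beside -0.05 over all genes. The value over all genes depended on the setting: it was 0.051 with the dimmest 40% of probe sets left out, where the 9 still gave 0.49, and 0.029 after arrays were centred on their median, where the 9 gave 0.57. All genes called were 3841 up and 4990 down in the main analysis, 3646 and 2839 without the dimmest probe sets, and 4504 and 2937 after centring.

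These calls rest on arrays whose overall spread also was not the same in both genotypes. On each array the interquartile range was taken, and it was 2.50 ± 0.11 log2 units in KO-LysM (SD, n = 8) and 2.25 ± 0.19 in WT (SD, n = 8), and the 9 enzymes have mean signals between percentiles 51.2 and 84.3 of the 17097 genes. With the interquartile range of each array as a term in limma, the median change of the 9 over both depots was 0.10. None of the 7 rises passed, nor did the fall of Cpt2, and Cpt1a fell by 0.62 (limma, adjusted p = 0.0136). The calls over all genes went from 51.7% to 7.91% in that fit. Acadm and Etfdh then stood at 0.32 and 0.30 with adjusted p of 0.0567 and 0.0773 (limma), and Acadvl and Hadhb turned below 0. Array spread was largely aligned with genotype, and this fit cannot tell them apart.

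**Figure D1:**
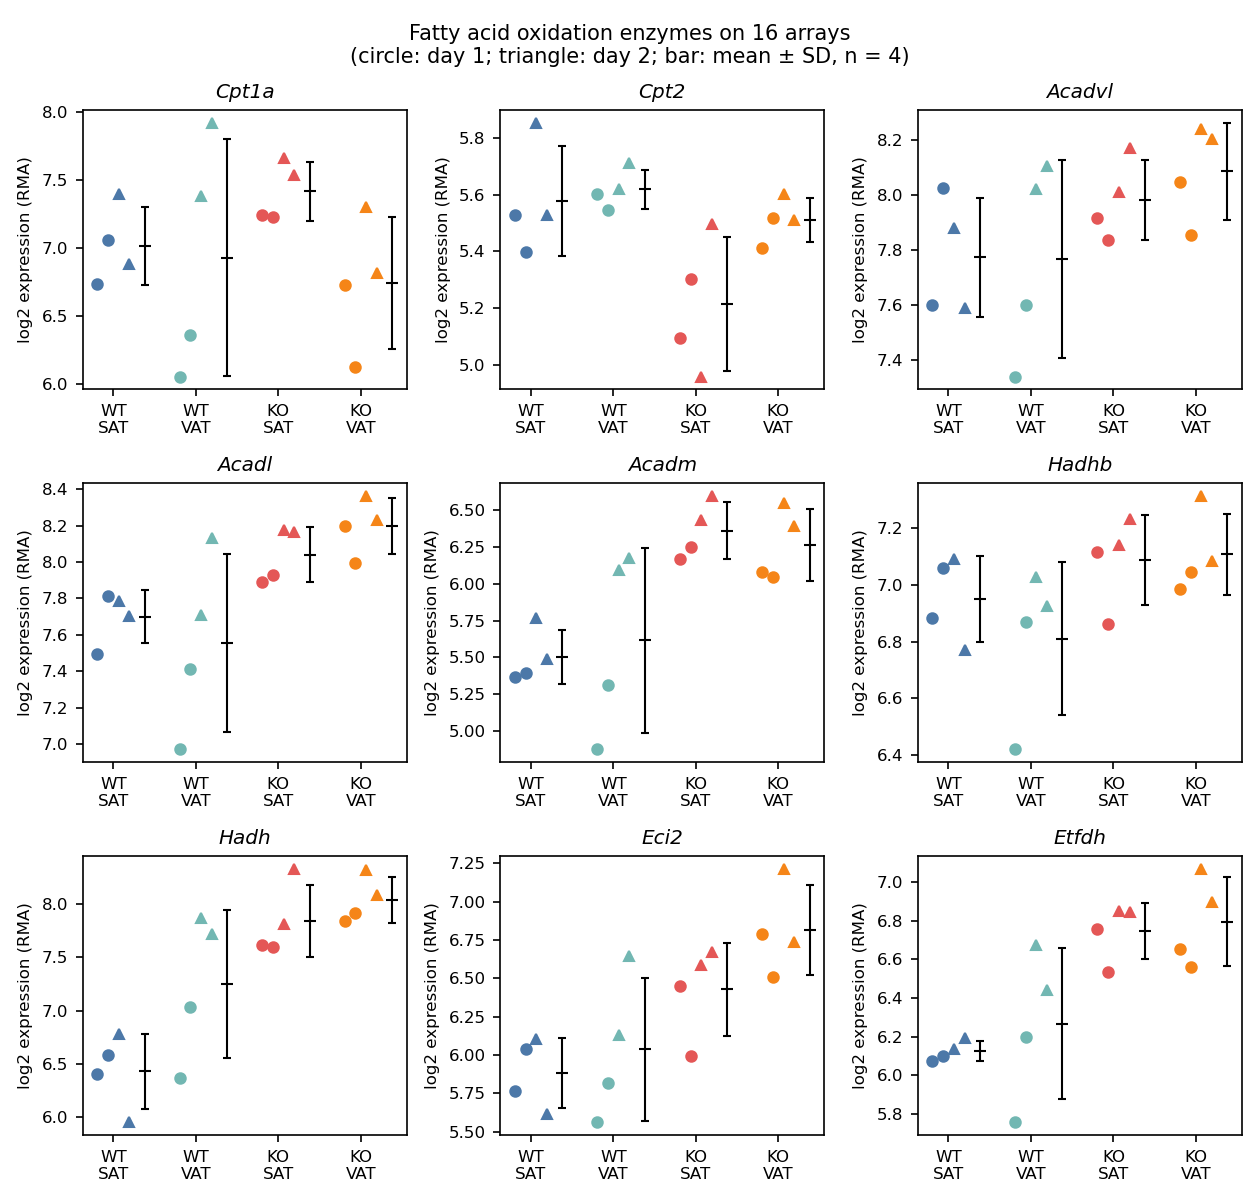
Log2 signal (vertical axis, separate scale per gene) of the 9 measured enzymes on each of the 16 arrays, by group (horizontal axis); circles are day 1 pools, triangles day 2 pools, and bars the group mean ± SD (n = 4). Hadh and Acadm are higher in KO-LysM SAT than in WT SAT without overlap, and WT VAT is the most scattered group for Cpt1a, from 6.05 to 7.92.

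The stretches upstream of 5 of these genes are printed because they stand for the ways the enzymes behaved here: Hadh, Acadm and Etfdh, which with Eci2 passed in both depots, Cpt2, which fell, and Hadhb, which shares its start region with Hadha. They are the 250 bases before the annotated start from RefSeq (GRCm38.p6), 5′ to 3′ on the gene's own strand. All 10 genes had an entry. Capitals mark matches, on either strand, to AGGTCA (a nuclear receptor hexamer, TGACCT when reversed), CGCATGCG (the core of the palindrome bound by NRF1), GGGCGG (the GC box, CCGCCC when reversed) and CCAAT.
Acadm: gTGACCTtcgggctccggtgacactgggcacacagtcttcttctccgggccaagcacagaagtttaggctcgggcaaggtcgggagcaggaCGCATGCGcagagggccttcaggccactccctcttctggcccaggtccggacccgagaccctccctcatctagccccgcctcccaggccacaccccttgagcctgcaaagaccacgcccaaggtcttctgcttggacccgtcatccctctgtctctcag
Etfdh: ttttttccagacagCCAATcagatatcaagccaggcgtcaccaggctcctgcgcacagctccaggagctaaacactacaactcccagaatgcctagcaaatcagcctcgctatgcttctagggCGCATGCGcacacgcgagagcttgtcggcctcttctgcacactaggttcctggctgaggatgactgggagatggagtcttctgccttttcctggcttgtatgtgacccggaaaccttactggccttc
Hadh: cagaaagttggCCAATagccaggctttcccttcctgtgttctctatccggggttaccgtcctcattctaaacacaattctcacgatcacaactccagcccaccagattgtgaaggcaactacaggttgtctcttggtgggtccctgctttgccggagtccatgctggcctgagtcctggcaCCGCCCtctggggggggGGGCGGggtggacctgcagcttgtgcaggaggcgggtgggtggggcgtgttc
Cpt2: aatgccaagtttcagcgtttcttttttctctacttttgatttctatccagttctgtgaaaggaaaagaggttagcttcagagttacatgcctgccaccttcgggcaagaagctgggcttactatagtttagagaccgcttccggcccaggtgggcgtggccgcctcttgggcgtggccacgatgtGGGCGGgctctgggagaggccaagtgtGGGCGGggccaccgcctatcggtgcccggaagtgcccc
Hadhb: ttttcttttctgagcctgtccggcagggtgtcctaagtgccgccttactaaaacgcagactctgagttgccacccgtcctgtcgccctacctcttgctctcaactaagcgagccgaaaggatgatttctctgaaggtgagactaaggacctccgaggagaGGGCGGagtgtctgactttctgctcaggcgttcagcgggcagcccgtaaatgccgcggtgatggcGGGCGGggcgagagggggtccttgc
They lie at chr3:153944644-153944893 (Acadm, minus strand), chr3:79628768-79629017 (Etfdh, minus), chr3:131272102-131272351 (Hadh, minus), chr4:107923590-107923839 (Cpt2, minus) and chr5:30155003-30155252 (Hadhb, plus).

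Acadm and Etfdh each held 1 CGCATGCG, present in 1.55% of 32851 such windows and in no other of the 10. Acadm also held 1 AGGTCA, as did Cpt1a and Acadvl (14% of windows), and Etfdh 1 CCAAT (33.8%). Hadh and Cpt2, which moved in opposite directions, each held 2 GC boxes, present in 32.7% of windows, and Hadh also 1 CCAAT. Acadl held 4 GC boxes and no other match, and Eci2 held 2 with 1 CCAAT. Hadhb held 2 GC boxes, and its start lies 273 bases from that of Hadha on the other strand, so that the upstream windows of the pair share 228 bases. No window of the 10 held a pair of AGGTCA hexamers in a row with 1 base between them, the direct repeat bound by PPARs with RXR (0.0335% of windows), or TNAAGGTCA, bound by estrogen-related receptors (1.14%); both of these contain AGGTCA. The motifs were chosen after the windows were read, and these matches are letters in a window only.

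Within SAT, the knockout groups stood apart for 4 enzymes. Of the 9, 4 rose and 1 fell, against 16.7% and 20% of all genes. The 4 KO-LysM SAT pools lay wholly above the 4 WT SAT pools for Acadm, Acadl, Hadh and Etfdh, while 16% of all genes were separated in that direction. Within VAT, 5 rose and 0 fell, against 10.2% and 5.76% of all genes, and no enzyme was without overlap (6.48% of all genes were separated upward and 5.64% downward). The median change was 0.40 in SAT and 0.53 in VAT, beside -0.055 and -0.054 over all genes.

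Among the steps of the spiral, Hadh differed most between the genotypes. In WT SAT it read 6.41, 6.58, 6.78 and 5.95 in pools 1 to 4, and in KO-LysM SAT 7.61, 7.60, 7.81 and 8.33. In WT VAT it read 6.36, 7.04, 7.87 and 7.72, and in KO-LysM VAT 7.84, 7.91, 8.32 and 8.08. The subcutaneous groups did not overlap, whereas in VAT pool 3 of the WT lay above the lowest knockout pool and pool 4 below all of them. The difference was 1.41 ± 0.23 in SAT, or 2.65-fold (limma, adjusted p = 0.00113), and 0.79 ± 0.23 in VAT (adjusted p = 0.0357). The call in VAT was lost when any of 5 VAT pools was left out, for example at 0.55 (adjusted p = 0.102) without WT VAT pool 1. The name of this probe set ends in x_at, an ending that Affymetrix gives to sets with probes shared by other transcripts. The other Hadh set averaged 5.15 and gave 0.33 in SAT (adjusted p = 0.0282 over 45037 probe sets), 0.024 in VAT and 0.18 over both depots (adjusted p = 0.0619).

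Acadm, the medium-chain acyl-CoA dehydrogenase, also rose in both depots. It read 5.37, 5.39, 5.76 and 5.49 in WT SAT and 6.17, 6.25, 6.43 and 6.60 in KO-LysM SAT. In VAT it read 4.87, 5.31, 6.10 and 6.18 in WT and 6.08, 6.05, 6.55 and 6.40 in KO-LysM. All 8 knockout pools were above 6, and of the WT pools only VAT pools 3 and 4 were. It rose by 0.86 ± 0.15 in SAT (limma, adjusted p = 0.00148) and by 0.65 ± 0.15 in VAT (adjusted p = 0.0119). The 2 depots of the knockout, at 6.36 ± 0.19 and 6.27 ± 0.25 (SD, n = 4), differed by less than the spread between pools.

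Acadl, the long-chain dehydrogenase, read 7.49, 7.81, 7.79 and 7.71 in WT SAT against 7.89, 7.93, 8.18 and 8.16 in KO-LysM SAT. In VAT it read 6.97, 7.41, 7.71 and 8.13 against 8.20, 8.0, 8.36 and 8.23. The SAT groups were separated, but by little, and the change of 0.34 ± 0.14 did not pass (limma, adjusted p = 0.0699); without WT VAT pool 1, which enters only the shared spread and day terms, the adjusted p was 0.0199. In VAT the enzyme rose by 0.64 ± 0.14 (adjusted p = 0.00981), and it was the 1 rise in VAT that still passed with array spread as a term, at 0.35 (adjusted p = 0.0478). A second Acadl probe set averaged 3.73, under background.

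Acadvl, which starts the oxidation of the longest chains, ranged from 7.59 to 8.03 in WT SAT, 7.34 to 8.10 in WT VAT, 7.83 to 8.17 in KO-LysM SAT and 7.85 to 8.24 in KO-LysM VAT. The groups overlapped in both depots. Its changes of 0.21 ± 0.13 in SAT and 0.32 ± 0.13 in VAT did not pass (limma, adjusted p = 0.213 and 0.105), and the value over both depots was -0.032 after quantile normalization. That call was also lost in 9 of the 16 fits that left out 1 array.

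Hadhb, the thiolase subunit of the trifunctional protein, ranged from 6.77 to 7.09 in WT SAT and 6.42 to 7.03 in WT VAT, and from 6.86 to 7.23 and 6.98 to 7.31 in the knockout. Again the groups overlapped. It changed by 0.14 ± 0.12 in SAT and 0.30 ± 0.12 in VAT, neither of which passed (limma, adjusted p = 0.349 and 0.0878). The rise over both depots depended on the probe set: the other Hadhb set, with a mean of 5.61, fell by 0.34 (adjusted p = 0.0163). The call of the brighter set was lost in 10 of the 16 fits that left out 1 array.

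Etfdh, the flavoprotein that hands electrons to ubiquinone, was the steadiest enzyme in WT SAT, at 6.08, 6.10, 6.14 and 6.19. The KO-LysM SAT pools read 6.76, 6.54, 6.85 and 6.84. In VAT it read 5.76, 6.20, 6.67 and 6.44 in WT and 6.65, 6.56, 7.07 and 6.90 in KO-LysM. WT VAT pool 3 lay among the knockout pools, and the other WT pools lay below all of them. It rose by 0.62 ± 0.12 in SAT (limma, adjusted p = 0.00237) and 0.53 ± 0.12 in VAT (adjusted p = 0.01).

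Eci2, the enoyl-CoA isomerase, read 5.77, 6.04, 6.10 and 5.62 in WT SAT and 6.45, 6.0, 6.59 and 6.67 in KO-LysM SAT. In VAT it read 5.56, 5.82, 6.13 and 6.65 in WT and 6.79, 6.51, 7.22 and 6.74 in KO-LysM. In each depot the overlap came from 1 pool: KO-LysM SAT pool 2 was low and WT VAT pool 4 high. It rose by 0.55 ± 0.18 in SAT (limma, adjusted p = 0.0304) and 0.77 ± 0.18 in VAT (adjusted p = 0.0125). In SAT the call was lost when any of 5 SAT pools was left out, for example at 0.39 (adjusted p = 0.115) without WT SAT pool 4.

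Of the carnitine palmitoyltransferases, Cpt2 fell in SAT and Cpt1a passed in neither depot. Cpt2 read 5.53, 5.40, 5.85 and 5.53 in WT SAT and 5.09, 5.30, 4.96 and 5.50 in KO-LysM SAT, with pool 4 of the knockout inside the WT range. In VAT it ran from 5.55 to 5.71 in WT and from 5.41 to 5.60 in KO-LysM. It fell by 0.36 ± 0.11 in SAT (limma, adjusted p = 0.0213), and its change of -0.11 ± 0.11 in VAT did not pass (adjusted p = 0.474). The fall in SAT was no longer called without WT SAT pool 3, at -0.28 (limma, adjusted p = 0.069), or without KO-LysM SAT pool 1 or 3. Nor was it called with array spread as a term.

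Cpt1a read 6.73, 7.05, 7.40 and 6.88 in WT SAT and 7.24, 7.23, 7.66 and 7.54 in KO-LysM SAT. In WT VAT it read 6.05, 6.36, 7.38 and 7.92, and in KO-LysM VAT 6.73, 6.12, 7.30 and 6.81. The VAT pools of WT spanned the whole range of the gene, and its changes of 0.40 ± 0.24 in SAT and -0.19 ± 0.24 in VAT did not pass (limma, adjusted p = 0.183 and 0.572). With array spread as a term the change in VAT was -0.73 (adjusted p = 0.00407).

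**Figure D2:**
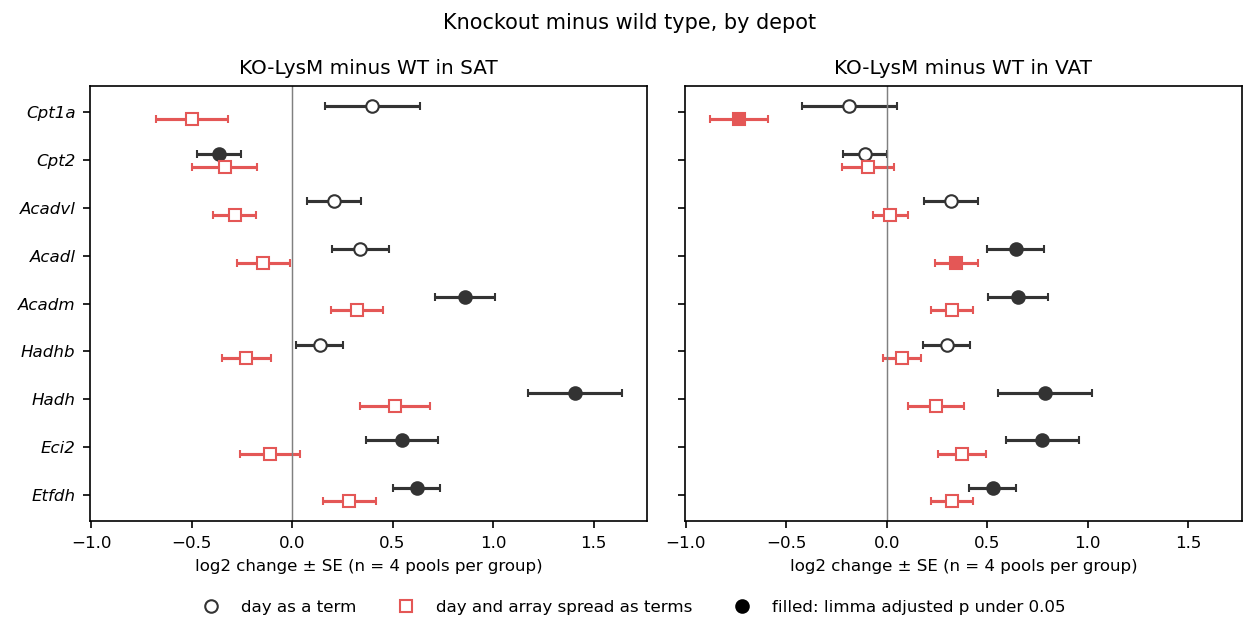
Log2 change ± SE, KO-LysM minus WT (horizontal axis), of the 9 enzymes (vertical axis) in SAT and in VAT, with day as a term (circles) and with array spread added (squares), filled where the limma adjusted p was under 0.05. Hadh in SAT moves from 1.41 to 0.51 when array spread is added. Cpt2 is below 0 in both depots in both fits, but is called in neither depot with array spread.

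The 4 WT VAT pools split by day. For Cpt1a the day means were 6.21 on day 1 and 7.65 on day 2 in WT VAT (2 pools each), against 6.43 and 7.06 in KO-LysM VAT. For Acadm they were 5.09 and 6.14 in WT VAT against 6.06 and 6.47 in the knockout. On day 1 alone, 5 of the 9 enzymes rose in VAT, Hadh by 1.17 and Acadm by 0.97, and 31.4% of all genes passed in either direction; on day 2 alone 0 enzymes and 1.94% of all genes passed, with Hadh at 0.41 and Acadm at 0.34. In SAT the order was the other way, with 2 enzymes and 3.4% of all genes passing on day 1, and 5 enzymes and 38% of all genes on day 2. The counts of enzymes thus moved with those of the whole array. Over both depots, Hadh, Acadm, Eci2, Etfdh and Acadl rose on each day alone, where 36.2% (day 1) and 25% (day 2) of all genes passed.

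WT VAT pools 3 and 4 also had interquartile ranges of 2.50 and 2.54, inside the knockout range of 2.36 to 2.63, and pools 1 and 2 had 2.01 and 2.15. Without pools 1 and 2, 0 enzymes and 5.39% of all genes passed in VAT, and 5 enzymes and 30.6% of all genes over both depots; without pools 3 and 4 the rise of Hadh in VAT was 1.23 and that of Acadm 1.01. The WT SAT arrays ran from 2.12 to 2.29 and, like WT VAT pools 1 and 2, lay below every knockout array. Array spread was thus largely aligned with genotype. The fit with spread as a term cannot tell their parts in these differences apart, and these were not tested otherwise.

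**Figure D3:**
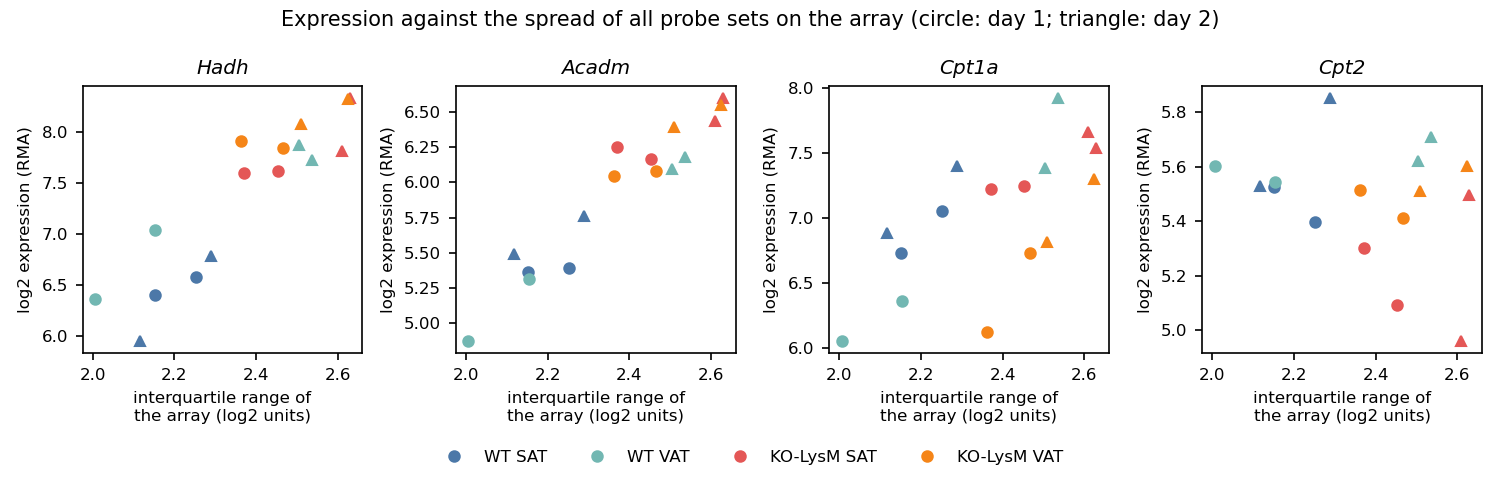
Log2 signal of Hadh, Acadm, Cpt1a and Cpt2 (vertical axis, separate scale per gene) against the interquartile range of the array (horizontal axis, log2 units), 1 point per array, coloured by group, with circles for day 1 and triangles for day 2. WT VAT pools 3 and 4, at 2.50 and 2.54, sit beside the knockout arrays for Hadh and Acadm, and Cpt2 stays between 4.96 and 5.85 across the range.

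Between depots no enzyme passed. In WT, VAT minus SAT gave 0 of 9, with 1 at an unadjusted p under 0.05 (limma), while 2.84% of all genes passed. That 1 was Hadh, at 0.82 ± 0.23 (adjusted p = 0.0796), which passed without WT VAT pool 1 at 1.06 (adjusted p = 0.00513). In KO-LysM, 0 of 9 passed, against 4.32% of all genes. At an unadjusted p under 0.05 (limma), which is looser than the threshold of that share, there were 3. They were Cpt1a at -0.68 ± 0.24, Cpt2 at 0.30 ± 0.11 and Eci2 at 0.39 ± 0.18, with adjusted p of 0.16, 0.188 and 0.374. The interaction, which is the change in VAT less the change in SAT, passed for 0 of 9, against 4.22% of all genes. Its count at an unadjusted p under 0.05 was also 0. Its largest values were -0.62 ± 0.33 for Hadh and -0.59 ± 0.33 for Cpt1a (adjusted p = 0.47 and 0.514). The rise of an enzyme in 1 depot and not in the other is thus not shown to differ between them.

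Over the arrays the enzymes other than Cpt2 correlated with each other. Group means and a day difference common to all groups were taken out first. Of the 36 pairs, 32 then had a Pearson correlation above 0 over the 16 arrays, with a median of 0.68 and a range of -0.28 to 0.88. The same values over all pairs of genes were not computed. Cpt2 correlated between -0.28 and 0.27 with the others, and Cpt1a with Acadm at 0.84. The 5 genes outside the group with the highest such correlation with Cpt1a were Abhd17a, Sdf4, Plp2, Dctn3 and Atox1, from 0.954 to 0.970. These arrays share the differences in spread given above. The common day term also leaves in the day split that WT VAT showed beyond the other groups. The correlations are a description, and shared regulation was not tested.

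Other genes of fatty acid metabolism were less uniform over both depots. Of 11 further genes of the carnitine shuttle and acyl-CoA synthesis, 5 rose and 2 fell, with a median of 0.26. Acss2, which makes acetyl-CoA from acetate, rose by 0.98 ± 0.08, and Slc25a20, the carnitine-acylcarnitine carrier between Cpt1a and Cpt2, by 0.62 ± 0.11. Cpt1b, the muscle form of the entry enzyme, fell by 0.42 ± 0.07.

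Of 17 other mitochondrial beta-oxidation genes, 7 rose and 3 fell, with a median of 0.13. Acat1, the acetoacetyl-CoA thiolase, rose by 0.89 ± 0.11 and Acot9, an acyl-CoA thioesterase, by 0.81 ± 0.18, while the thioesterase Acot2 fell by 0.40 ± 0.07. The 3 ketone body genes measured had a median of 0.22; Acat1 is 1 of them, and Bdh2 fell by 0.51 ± 0.10. In the peroxisome, whose beta-oxidation uses a separate set of enzymes, 3 of 15 genes rose and 4 fell, with a median of 0.059: Abcd3, an acyl-CoA transporter, rose by 0.67 ± 0.13, and Crot, a carnitine octanoyltransferase, fell by 0.43 ± 0.09. Eci3, a close relative of Eci2, fell by 0.32 ± 0.07 where Eci2 rose.

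Among 20 regulators of the pathway, 6 rose and 3 fell, with a median of 0.10. Nrip1, a co-repressor of nuclear receptors, rose by 0.71 ± 0.09. Sirt1, a deacetylase, was under background in both WT groups, at 4.37 and 4.16, and was at least 1.29-fold higher in KO-LysM, counting WT signals at no less than background. Prkaa1, a catalytic subunit of AMP-activated kinase, also passed, but it was under background in every group and its difference is not given. Of 11 other target genes of PPARs, 1 rose and 4 fell, with a median of -0.095; Slc25a34 fell by 0.68 ± 0.13 and Fgf21 by 0.31 ± 0.07, and Ucp3, under background in both KO-LysM groups, was at least 1.17-fold lower there. Of 15 genes of fatty acid uptake and lipolysis, 3 rose and 3 fell, with a median of -0.10. Fabp4, a lipid chaperone, rose by 0.63 ± 0.13, Mgll, the monoacylglycerol lipase, by 0.61 ± 0.17, and the transporter Slc27a1 fell by 0.38 ± 0.07. The means of Fabp4 in WT and KO-LysM were 9.4 and 10.7 in SAT, but 10.3 and 10.1 in VAT. Those of Mgll were 5.3 and 5.2 in SAT, but 5.3 and 6.7 in VAT. Each of these averaged rises thus came from a single labelled depot.

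With array spread as a term, Acss2 (0.84), Acat1 (0.39), Nrip1 (0.54), Mgll (0.93) and Cpt1b (-0.46) still passed over both depots. The other 14 genes named for that comparison did not, and Acot9 and Ucp3 changed sign there.

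**Figure D4:**
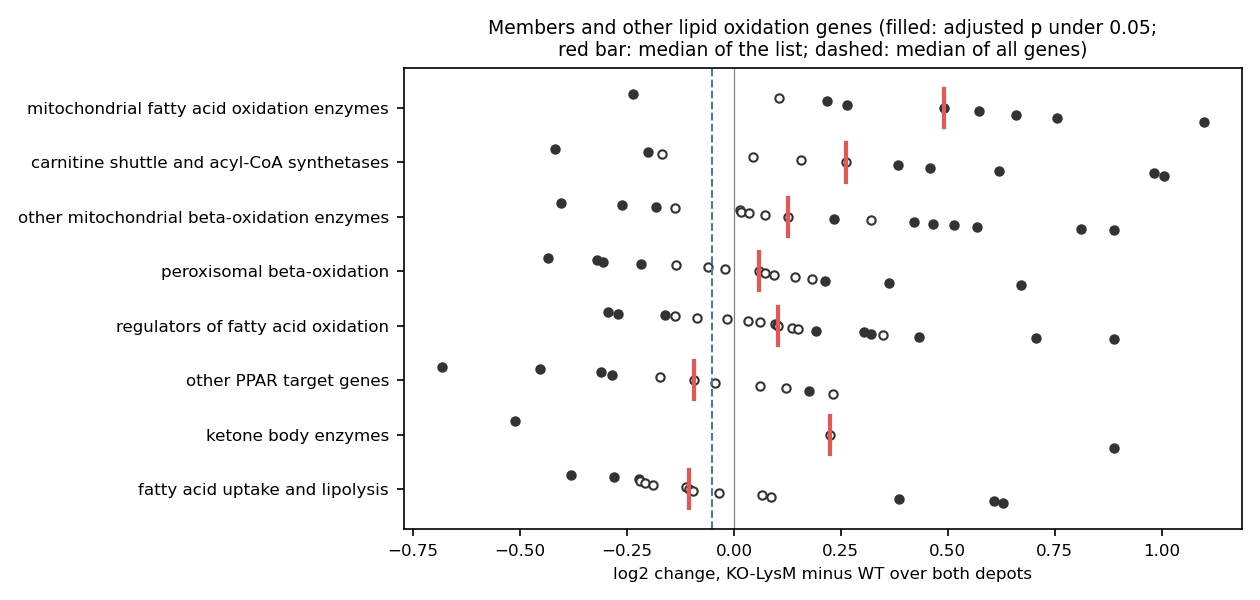
Log2 change, KO-LysM minus WT over both depots (horizontal axis), of each gene in the enzyme group and in 7 other lists of fatty acid metabolism (vertical axis), filled where the limma adjusted p was under 0.05, with a red bar at the list's median and a dashed line at that of all genes. The 9 enzymes have a median of 0.49 and the 11 other PPAR target genes one of -0.095.

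A few of these genes did differ between depots as labelled. In WT, VAT minus SAT was 0.84 ± 0.20 for Cpt1c, a brain-type relative of Cpt1a, 0.91 ± 0.19 for Fabp4, 0.33 ± 0.07 for Tfam, which maintains mitochondrial DNA, -0.45 ± 0.10 for Slc27a1 and -0.54 ± 0.14 for Fabp5. In KO-LysM it was 1.49 ± 0.24 for Mgll, 0.99 ± 0.11 for Acss2, -0.88 ± 0.15 for the fatty acid receptor Cd36, -0.79 ± 0.15 for Lpl, -0.66 ± 0.12 for Txnip and -0.35 ± 0.08 for Pparg; Acot1 also passed but was under background in every group. The knockout effect differed between depots for Mgll (1.5 ± 0.34), Ppard (0.95 ± 0.23), Acss2 (0.59 ± 0.15), Txnip (-0.85 ± 0.16) and Fabp4 (-1.49 ± 0.27), all at an adjusted p under 0.05 (limma). Several of these calls were narrow. Of 27 alternative fits, the WT depot call was lost in 21 for Fabp5, 15 for Cpt1c, 8 for Tfam, 7 for Slc27a1 and 5 for Fabp4, the KO-LysM depot call in 9 for Pparg, and the difference between depots in 18 for Acss2 and 12 for Ppard. With pool number as a block in limma, adjusted p was 0.0607 for Fabp5, 0.0673 for Cpt1c, 0.0717 for Acss2 and 0.054 for Ppard. Cpt1c in WT was 0.38 on day 1 alone and 1.30 on day 2 alone.

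Markers of other cells moved with the same comparisons, and in bulk samples fewer cells of a type and less RNA per cell cannot be told apart. Skeletal muscle fibres are rich in beta-oxidation enzymes, with Cpt1b as the muscle form of the entry enzyme. The summed level (log2) of skeletal muscle markers was 11.16 to 12.04 in WT SAT and 8.57 to 8.80 in KO-LysM SAT. In VAT it was 8.62 to 9.01 in WT and 9.40 to 10.07 in KO-LysM. All 12 muscle markers fell in KO-LysM against WT in SAT, where 20% of all genes fell. In VAT 6 of 12 rose, against 10.2% of all genes. Myh1 was under background in every group. Atp2a1 changed by -4.10 in SAT and by 1.89 in VAT. Of 8 adipocyte markers measured, 2 rose and 0 fell in SAT, and 1 rose and 1 fell in VAT, Scd1 rising by 1.32 and 2.25. Adipoq averaged 4.91 in WT and 5.53 in KO-LysM in SAT, but 5.40 and 4.94 in VAT. A summed level adds signals before the log2 is taken, so the brightest markers weigh most. For adipocyte markers it ran from 9.45 to 9.79 in WT SAT and 10.16 to 10.24 in KO-LysM SAT. In VAT it ran from 9.46 to 10.48 in WT and 10.38 to 10.79 in KO-LysM. Lep and Pck1 were under background in every group, and Plin4 in KO-LysM VAT. Of 6 brown adipocyte markers, Cidea and Elovl3 were under background in every group, and the summed level was between 7.31 and 7.79 throughout.

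In SAT, 6 of 10 endothelial markers rose, and 5 of 10 stromal markers rose and 2 fell. Falls were called for 8 of 8 T cell, 5 of 7 B cell, 3 of 6 neutrophil and 7 of 10 mast cell and basophil markers, with 1 of the last rising. Of all genes, 16.7% rose and 20% fell there. Under background in both SAT groups were Cd28 and Cd5 (T cell), Ms4a1 (B cell), Cxcr2 and S100a8 (neutrophil) and Col1a2 (stromal). So were Cpa3, Fcer1a, Kit, Mcpt4, Ms4a2 and Tpsb2 of the mast cell list. Differences of these markers are between background signals. Epithelial and seminal vesicle genes were high in KO-LysM SAT, where their summed level was 12.60 to 13.32 against 8.85 to 10.11 in both WT groups, and 7 of 10 rose. In VAT 0 of 10 endothelial, 0 of 8 T cell and 0 of 7 B cell markers passed in limma, with 2, 3 and 1 at an unadjusted p under 0.05. Of 14 macrophage markers, 0 rose and 2 fell in SAT and 0 rose and 3 fell in VAT, with Lyz2 lower by 0.64 and 0.58. Lyz2 is the lysozyme M gene, whose promoter drove the Cre, so it was not read as a measure of macrophages alone. Cd68, the brightest of the list, averaged 11.47 in WT and 11.39 in KO-LysM in SAT, and 11.14 and 10.75 in VAT. The summed T cell level was 9.11 to 9.68 in WT SAT and 8.15 to 8.48 in WT VAT. It was 7.80 to 8.19 in KO-LysM SAT and 8.23 to 8.79 in KO-LysM VAT. Like Akr1c18, the T cell and muscle levels were thus higher in SAT in WT and in VAT in KO-LysM. The medians of the macrophage and stromal levels kept their depot order in both genotypes. Whether depot labels of 1 genotype are exchanged was not settled, so these values hold as labelled only. The part of these other cells in the enzyme changes was not tested.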

How the data were processed

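Expression was measured on 16 Affymetrix arrays, 1 per pool. The deposited log2 values were made by the authors with RMA and the affy package, per the submitters' processing notes; RMA corrects background and brings arrays to common probe-level quantiles, so that small shifts shared by most genes are removed. Of 45141 probe sets, 104 were controls and 28898 named 1 gene. No filter was applied. Linear models from limma 3.58.1 (R 4.3.3; functions lmFit and eBayes) covered all 17097 genes, with 4 group means and day, and p-values were two-sided. The number of arrays limits the precision. The model was tested on simulated data for KO-LysM SAT against WT SAT, with 200 genes changed. It recovered 55% of log2 changes of 0.5 and 93% of changes of 1, and 13 of 161 calls were false. Unlike spread between arrays was not simulated.

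The enzymes and gene lists were chosen with earlier results of these data known. The text names every enzyme, the label checks, up to 3 genes of each list with the smallest adjusted p, up to 2 of the brightest markers of a cell type, and the 5 genes closest to Cpt1a. Pool numbers were checked as pairs: deviations of same-numbered pools correlated from -0.47 to 0.61, so the block was an alternative. Other alternatives were no day term, each day, a filter, other probe sets and normalizations, array spread, and arrays left out.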

Additional observations from a re-analysis of the deposited data

How the results depend on the processing

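Of 1476 values of enzyme changes under alternatives, 1290 kept their direction and their side of the threshold. A further 83 kept their direction and lost the call, 30 kept it and gained one, and 73 changed sign. Not all sign changes were near 0: Hadhb over both depots was 0.22 with the brighter probe set and -0.34 with the other. The cause of these changes was not tested. The fits without WT VAT pools and with the other probe set were chosen after the data had been seen. Below, SAT, VAT and both stand for KO-LysM minus WT in that depot or averaged, WT depot and KO depot for VAT minus SAT, and interaction for the VAT value less the SAT value.

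With pool number as a replicate block, 5 enzymes passed in SAT, 5 in VAT and 8 over both depots, and the block changed no call of an enzyme; same-numbered pools share a day, which is already a term, and a number. Of the other genes named, Cpt1c and Fabp5 in the WT depot comparison and Acss2 and Ppard in the interaction lost their calls.

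The number of enzymes passing is given here with the percentage of all genes passing in the same fit in brackets. In the interaction it was 0 (4.22%) in the main analysis, 1 (6.27%) after quantile normalization, 2 (9.91%) with array spread as a term and 3 (16.4%) without WT VAT pools 1 and 2. In the WT depot comparison it was 0 (2.84%), and 1 (6.71%) after quantile normalization, 1 (8.79%) with array spread, 3 (24.7%) on day 2 alone and 3 (25.4%) without WT VAT pools 1 and 2. In the KO depot comparison it was 0 (4.32%), 2 (11.5%) with array spread, 1 (7.38%) without WT VAT pools 1 and 2 and 1 (6.84%) without pools 3 and 4. In SAT it was 5 (36.7%), 2 (3.4%) on day 1 and 0 (7.65%) with array spread. In VAT it was 5 (15.9%), 1 (5.77%) with no day term, 0 (1.94%) on day 2, 2 (10.8%) with array spread and 0 (5.39%) without WT VAT pools 1 and 2. Over both depots it was 8 (51.7%), 5 (36.2%) on day 1, 5 (25%) on day 2, 1 (7.91%) with array spread and 5 (30.6%) without WT VAT pools 1 and 2. Leaving out 1 array at a time gave 0 to 1 (1.35% to 10%) in the WT depot comparison and 3 to 7 (18% to 46.6%) in SAT.

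On day 1 alone, signs changed in the WT depot comparison for Acadm (-0.29), Eci2 (-0.21) and Etfdh (-0.11), in the KO depot comparison for Etfdh (-0.041), in VAT for Cpt1a (0.22), and in the interaction for Acadm (0.14), Hadh (0.061) and Etfdh (0.070). On day 2 alone they changed in the WT depot comparison for Cpt1a (0.51), Cpt2 (-0.025), Acadl (0.17), Acadvl (0.33) and Hadhb (0.047). On that day Cpt1a over both was -0.067, and the interaction was -0.045 for Acadl, -0.20 for Acadvl, -0.034 for Hadhb and -0.18 for Eci2.

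Quantile normalization gave -0.0082 for Acadl, -0.14 for Acadvl and -0.15 for Hadhb in SAT. Over both it gave -0.084 for Cpt1a, -0.032 for Acadvl and -0.017 for Hadhb, and 0.0071 for Etfdh in the interaction. Centring on the median gave 0.013 for Acadvl in the WT depot comparison, and Cpt2 over both no longer passed (-0.16, adjusted p = 0.113 in limma). With array spread as a term, the WT depot values of Acadm and Eci2 were -0.055 and -0.048. In SAT the values were -0.50 for Cpt1a, -0.14 for Acadl, -0.28 for Acadvl, -0.23 for Hadhb and -0.11 for Eci2. Over both they were -0.62 for Cpt1a, -0.13 for Acadvl, -0.076 for Hadhb, -0.034 for Acot9 and 0.072 for Ucp3, and in the interaction 0.0027 for Acadm and 0.037 for Etfdh.

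Without WT VAT pools 1 and 2 the WT depot values were 0.42 for Cpt1a, 0.13 for Acadl and 0.22 for Acadvl. Cpt1a over both was then -0.15, and the interaction -0.12 for Acadvl and -0.0043 for Eci2. Without WT VAT pools 3 and 4 the WT depot values were -0.25 for Acadm, -0.077 for Eci2 and -0.041 for Etfdh. Cpt1a in VAT was then 0.33, and the interaction 0.15 for Acadm and 0.088 for Etfdh. The other probe set gave -0.045 for Hadh in the KO depot comparison. For Hadhb it gave -0.39 in SAT, -0.29 in VAT and -0.34 over both. For Acadl it gave -0.17 in SAT and -0.082 over both, but that set averaged 3.73, under background. Its signs are thus no check on the change of Acadl. The mean of all probe sets gave -0.13 in SAT and -0.060 over both for Hadhb.

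With 1 array left out at a time, the WT depot values ran from -0.33 to 0.11 for Cpt1a, -0.0015 to 0.12 for Cpt2, -0.0018 to 0.29 for Acadm, -0.29 to 0.011 for Acadl, -0.12 to 0.13 for Acadvl and -0.0029 to 0.28 for Eci2. Hadhb ran from -0.032 to 0.061 in the KO depot comparison, Cpt1a from -0.38 to 0.051 in VAT, and the interaction of Acadvl from -0.028 to 0.22.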
